A study of Sus scrofa with 5 samples.

Results

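OVOL1 GPX2 intermediate epithelial cells of the piglet cecum were chosen by their measured counts, as barcodes with at least 200 detected genes and at least 1 UMI (unique molecular identifier, 1 counted mRNA molecule) each of OVOL1, GPX2 and KRT19. They also had to stay under 15 UMIs per 10000 for TMIGD1 plus DPEP1, under 20 for MUC2 plus CLCA1 plus SPINK4, and under 20 for OLFM4, which set them apart from absorptive, goblet and crypt cells. In all, 2104 of 72701 kept barcodes were members. The 5 libraries came from the cecum of male large white piglets fed by the sow and killed at birth (d0) or at d1, d7, d14 or d21, and cells of 5 piglets were mixed in each library, so that single animals cannot be told apart. Each age is 1 library, no value has a replicate, and no test was possible. The intervals given are 95% exact intervals for counting error only, and the age of the piglets and the library cannot be told apart. From the youngest to the oldest age, the libraries kept 15218, 14142, 10272, 16177 and 16892 barcodes, with 83394038, 80196009, 47921183, 91863866 and 69522315 UMIs. Any pair of libraries shared 37 to 79 kept barcode sequences and at most 1 member barcode.

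The intestinal epithelium renews from stem cells in the crypt, and cells leaving the crypt stop dividing and become absorptive or secretory as they move to the surface. OVOL1 is a zinc finger transcription factor that restrains growth and maintains the epithelial state. GPX2 is the gastrointestinal glutathione peroxidase, which reduces hydroperoxides and is known from crypt epithelium, and KRT19 is a keratin of simple epithelia. The genes that bounded the members mark the neighbouring states: TMIGD1 and DPEP1 (a brush border adhesion protein and a dipeptidase) mark absorptive cells, MUC2, CLCA1 and SPINK4 mucus cells, and OLFM4 the crypt base. For comparison, 3 classes were built from other KRT19-positive barcodes that exceeded only the TMIGD1 plus DPEP1 limit (absorptive class), only the mucus gene limit (goblet class) or only the OLFM4 limit (crypt class). On the RefSeq annotation of the pig assembly susScr11, the build of the files, OVOL1 lies at chr2:6526679-6538992, GPX2 at chr7:89007636-89011620, KRT19 at chr12:21115453-21119115, DMBT1 at chr14:132154346-132231274 and EDN1 at chr7:8752018-8758354.

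Members were most frequent at d1. There were 398 at d0 (2.62% of kept barcodes, interval 2.37 to 2.88%), 1503 at d1 (10.6%, 10.1 to 11.15%), 133 at d7 (1.29%, 1.09 to 1.53%), 15 at d14 (0.0927%, 0.0519 to 0.153%) and 55 at d21 (0.326%, 0.245 to 0.424%). The share at d1 thus stood above that at every other age by far more than the counting error. Since the libraries also differ in how many immune and stromal cells they hold, the share was also taken over barcodes with both KRT19 and EPCAM, a pan-epithelial adhesion molecule. On that scale it was 4.82% at d0, 27.2% at d1, 20.3% at d7, 5.26% at d14 and 4.23% at d21. Within the epithelium d7 was thus nearer to d1 than over all barcodes, though below it by more than the counting error, and the intervals of d0 (4.37 to 5.31%) and d21 (3.14 to 5.55%) overlapped. Expressed as d21 over d0, the log2 ratio of shares was -3.01 (-3.41 to -2.60) over all kept barcodes and -0.19 (-0.61 to 0.23) over the KRT19 and EPCAM barcodes.

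**Figure D1:**
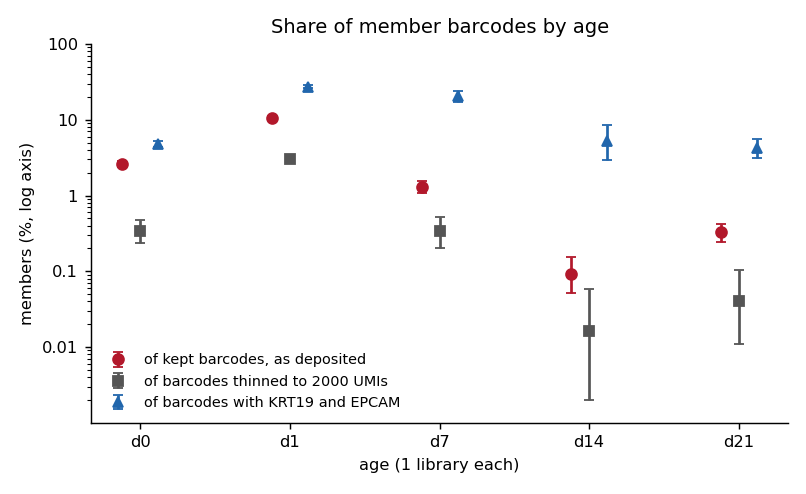
Share of members (y axis, percent, log axis) at each age (x axis), over kept barcodes (red circles), over barcodes thinned to 2000 UMIs (gray squares) and over barcodes with KRT19 and EPCAM (blue triangles), with 95% exact intervals. All 3 measures are highest at d1, at 10.6%, 3.00% and 27.2%.

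A rule that asks for 3 genes finds more of its members among deep barcodes. The median member held 14310 UMIs at d0, 13576 at d1, 28467 at d7, 23738 at d14 and 15705 at d21, against 2859, 3005, 2340, 4121 and 2587 over all kept barcodes. Once every barcode was thinned to 2000 UMIs, leaving out 3910 to 6984 shallower barcodes a library, the share was 0.343% at d0, 3.00% at d1, 0.335% at d7, 0.0163% at d14 and 0.0404% at d21. The order of d1 over d0 and d7, and of these over d14 and d21, was the same as without thinning. Among barcodes with at least 10000 UMIs that carried KRT19 and passed all 3 limits, 86.0% were members at d1 (1029 of 1196), against 35.2% at d0, 38.8% at d7, 9.09% at d14 and 12.1% at d21. At d1, most deep KRT19 barcodes without a strong absorptive, goblet or crypt signature therefore carried OVOL1 and GPX2. The size of the excess at d1 depended on which barcodes were counted. The log2 ratio of the d1 share over that of d0 was 2.02 (1.87 to 2.18), 3.13 after thinning, 2.65 without barcodes carrying RNA of other cell types and 1.16 among barcodes with under 20% mitochondrial UMIs, and was above 0 in each. The last choice left out 61.0% of the kept barcodes at d0, against 22.0% at d1, 21.8% at d7, 11.3% at d14 and 18.8% at d21. Of the members it left out 14.3% at d0 and 6.05% at d1.

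The limit that left out other OVOL1, GPX2 and KRT19 barcodes differed between ages. At d0 the absorptive genes alone left out 35.3% of the 682 barcodes with all 3 genes, and OLFM4 alone 0.733%. At d21 the absorptive genes left out 0 of 170, for which the exact interval reaches 2.15%, and OLFM4 alone left out 65.9%. At d1, 10.2% were left out by the absorptive genes alone, 11.2% by the mucus genes, against 4.55% at d0 and 1.18% at d21, and 5.66% by OLFM4. Members made up 10.3% of all OVOL1 barcodes at d0 and 46.3% at d1. Of the 1503 d1 members, 72 were within 20% below the limit for TMIGD1 plus DPEP1, and 36 barcodes with all 3 genes were within 20% above it. At d0 these numbers were 57 of 398 and 52, so the absorptive limit cut through a denser range there.

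The genes that name the members were checked across classes, with OVOL1, GPX2 and KRT19 given as a description because the rule chose on them. A level here is the summed UMI count of a gene per 10000 UMIs of the same barcodes. OVOL1 stood at 1.74 in the d0 members, 2.67 at d1, 1.30 at d7, 0.647 at d14 and 1.26 at d21. At d1 it was 1.98 in the absorptive class, 1.98 in the goblet class and 1.28 in the crypt class, so OVOL1 was present in all 3 neighbours. GPX2 was 1.084 in the d0 members, 3.72 at d1, 5.64 at d7, 4.02 at d14 and 3.45 at d21. The classes, of which the rule required no GPX2, held 0.110 at d0, 0.812 at d1 and, on only 36 barcodes, 5.25 at d7 (absorptive), 0.299 at d0 and 2.59 at d1 (goblet), and 3.18 at d1 and 3.15 at d7 (crypt). KRT19 was 38.3, 29.5, 78.9, 79.9 and 68.4 in the members from d0 to d21, and 13.9 to 20.4 in the crypt class at d1, d7 and d21. A member often owed its place to few molecules, since 54.8% of the d0 members held exactly 1 UMI of GPX2 and 39.4% exactly 1 of OVOL1, against 12.5% and 22.7% at d1.

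DMBT1 and EDN1, also given as markers of these cells, did not single them out. DMBT1, a secreted scavenger receptor protein of mucosal defense, was 7.28 in the d0 members, 20.4 at d1, 38.7 at d7, 15.2 at d14 and 10.8 at d21. The absorptive class was higher at both ages where it was large, with 8.68 at d0 and 27.1 at d1. EDN1, the precursor of the vasoconstrictor peptide endothelin-1, was 2.93, 4.92, 1.03, 1.11 and 1.12 in the members and again higher in the absorptive class, with 5.31 at d0 and 8.32 at d1. Both genes were higher in members than in the goblet and crypt classes at d1, where DMBT1 was 11.08 and 4.13 and EDN1 3.15 and 1.59. On these data the members are thus the OVOL1 and GPX2 positive barcodes of the rule. At d0 and d1 they shared DMBT1 and EDN1 with the absorptive class. At d7 only 30 absorptive barcodes were deep enough to be thinned. In these DMBT1 was 48.25, above the 38.7 of the members, but EDN1 was 0.897, not above their 1.03.

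**Figure D2:**
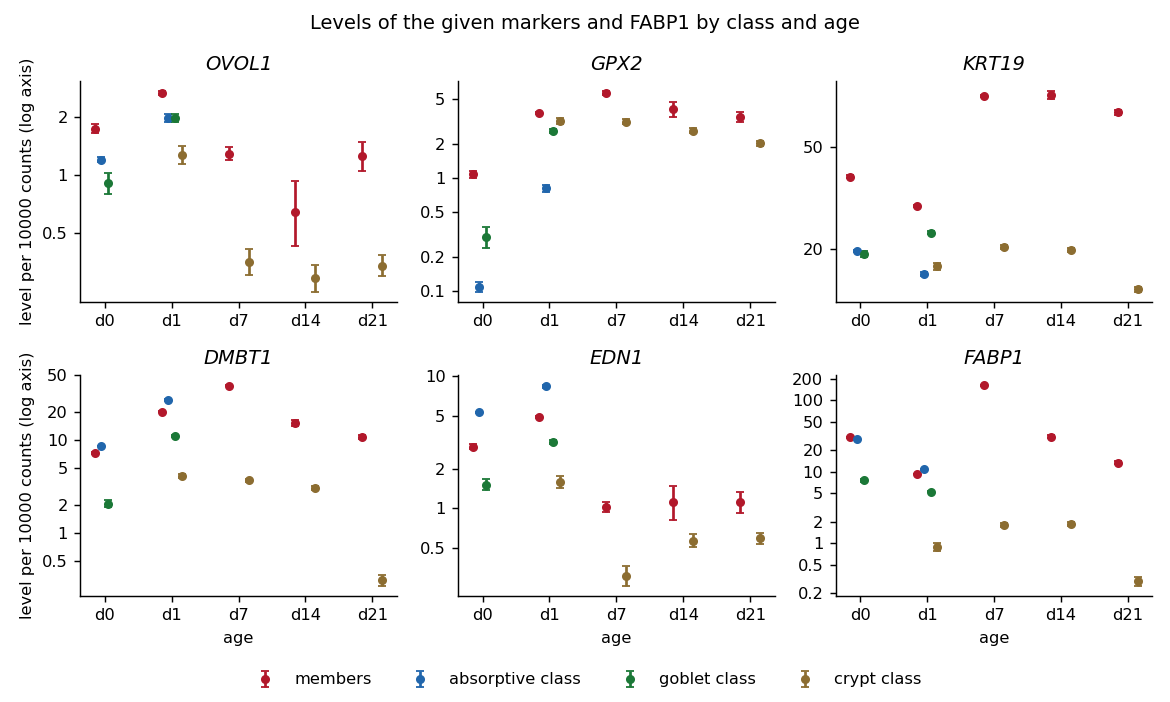
Levels per 10000 UMIs (y axes, log axes) of OVOL1, GPX2, KRT19, DMBT1, EDN1 and FABP1 by age (x axes) in members and in the absorptive, goblet and crypt classes, drawn where a class has at least 50 barcodes (members always); bars are 95% exact Poisson intervals. Members carry more KRT19 than the other classes at every age drawn, and less EDN1 than the absorptive class at d0 and d1.

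Free RNA in the droplets could lend these genes to other cells, so detection was compared at 2000 UMIs per barcode. OVOL1 was seen in 41.0% of d1 members (38.5 to 43.6%), in 4.12% of lymphocyte barcodes (1.67 to 8.30%) and in 2.55% of fibroblast barcodes (1.79 to 3.51%). GPX2 was seen in 51.1% of d1 members, 2.94% of lymphocyte and 2.20% of fibroblast barcodes. At d0 the member shares were 30.98% and 25.7%, against 1.52% and 0.505% of lymphocyte barcodes. Without thinning, OVOL1 was seen in 6.47% of d1 lymphocyte barcodes, whose median depth was 3104 UMIs among those counted. The background was larger for KRT19, seen after thinning in 98.2% of d1 members, 25.9% of lymphocyte and 27.2% of fibroblast barcodes. DMBT1 was seen in 84.1%, 21.8% and 22.5%, and EDN1 in 51.8%, 4.71% and 8.29%. The rule required OVOL1, GPX2 and KRT19 of every member and of no lymphocyte or fibroblast barcode, so their gaps are a description. The lymphocyte and fibroblast barcodes also had to hold no UMI of EPCAM, which leaves out barcodes with more epithelial RNA. Their shares describe the background in such barcodes only and may understate it in others.

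Other cell types were looked for by 8 genes of T cells, B and plasma cells, myeloid cells, fibroblasts and endothelium (CD3E, PTPRC, CD79B, JCHAIN, CSF1R, COL3A1, COL1A2 and PECAM1). At least 2 UMIs of these genes were held by 2.76% of d0 members, 24.8% at d1, 33.8% at d7, 66.7% at d14 and 52.7% at d21. Their summed level in the members was 0.102, 1.65, 0.631, 8.34 and 3.02, against 0.766, 12.7, 13.2, 55.3 and 31.5 in the whole libraries. Whole marker lists took different courses. The 8 fibroblast genes, of which COL3A1 was the most abundant at d1, summed to 0.0404 in d0 members, 1.90 at d1, 0.193 at d7, 10.1 at d14 and 1.78 at d21, and the 7 endothelial genes, led by PLVAP, to 0.0473, 1.03, 0.0345, 0.0924 and 0.0866. The 12 myeloid genes, led by C1QA, summed to 0.0863, 0.968, 1.28, 1.16 and 0.596. No gene of these 3 lists was at 0 in the members of both d0 and d1. The d14 members were 15 barcodes with much lymphocyte and fibroblast RNA, and they are given below only as levels. No barcode was removed as a doublet, and the part of such RNA in the results was not tested, except by leaving these barcodes out.

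Compared with the absorptive class, the members carried far less of the nutrient absorption genes, and fewer genes were higher than lower. A gene was called when its log2 ratio, after adding 0.1 to each level, was at least 1 in size in the same direction at both d0 and d1, with a level of at least 0.5 in 1 of the classes. A gene low in one of the groups compared is thus measured only through the group where it is high, so the counts of list genes given here and below are partly set by this filter and are read as descriptions. Of 3163 genes measured, 53 (1.68%) were higher and 161 (5.09%) lower in members. The absorptive enterocyte list had 16 of its 19 measured genes lower and 0 higher, among them TMIGD1 and DPEP1, which the rule used, and APOB, APOA4 and MEP1B, which were under 0.5 in d1 members. The most reduced was APOA1, the main apolipoprotein of high-density lipoprotein, with 0.635 in members and 15.3 in the absorptive class at d0, and 0.882 against 32.0 at d1. APOB, the scaffold of chylomicrons, was 0.640 against 6.63 at d0 and 0.347 against 8.10 at d1. APOC2, SLC6A19 (a neutral amino acid transporter of the brush border), SLC5A12 (a lactate transporter), MEP1B (a brush border protease), MUC12, PMP22 and ASS1 were among the other leading lower genes.

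Of the lysosomal genes, where 5.09% of all genes were lower, 7 of 15 measured members of the endocytosis and lysosome list were lower (among them CTSB, CTSZ, LAMP2, PSAP and LGMN) and 0 higher. FABP1, the liver-type fatty acid binding protein, did not follow this pattern. It was 30.4 in members and 28.7 in the absorptive class at d0, and 9.31 against 10.9 at d1. The genes higher in members than in the absorptive class were led by OLFM4, which the rule capped in both, and by FCN2, a ficolin of the lectin complement pathway, at 4.16 against 0.0478 at d0 and 2.08 against 0.184 at d1. PPP1R1B (a phosphatase inhibitor), DUT (which keeps uracil out of DNA), APP, NME1 (a nucleoside diphosphate kinase), FBL (fibrillarin, of ribosomal RNA processing), HMGA1 (a chromatin protein) and EHF (an epithelial ETS factor) followed. EHF was 1.79 against 0.566 at d0 and 2.82 against 0.880 at d1. Of the glutathione and NRF2 target list, only GPX2 itself, on which the rule chose, was past the fold among 25 measured genes.

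This balance of higher and lower genes depended on the scale. Mitochondrial transcripts took 11.5% of UMIs in d0 members and 19.1% in the absorptive class, and 9.29% against 16.2% at d1. With mitochondrial and hemoglobin genes out of the denominator, the median log2 ratio of all measured genes moved from -0.02 to -0.16 at d0 and from -0.03 to -0.16 at d1, and the calls became 35 higher and 216 lower. In the comparison with the crypt class below, the same change of scale moved the median at d21 from -0.07 to 0.06. Taking the mean over barcodes gave 113 higher and 171 lower genes in the absorptive comparison, and keeping barcodes under 20% mitochondrial UMIs gave 30 higher and 180 lower.

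Compared with the crypt class at d1, d7 and d21, the members held more FABP1, KRT20 and GUCA2A and less C3, CFI and SLC12A2. Of 3677 genes measured, 104 (2.83%) were higher and 52 (1.41%) lower in members at all 3 ages. FABP1 was 9.31 in members and 0.886 in the crypt class at d1, 162 against 1.80 at d7 and 13.4 against 0.294 at d21. KRT20, a keratin of mature surface cells, was 7.01 against 0.721, 22.9 against 1.28 and 10.9 against 0.586 at these ages. GUCA2A (guanylin, which stimulates salt and water secretion), SLC9A3 (the apical sodium/proton exchanger NHE3), AOC1 (the enzyme that degrades dietary histamine), SLC30A10, SLC51B (a subunit of the basolateral bile acid exporter), PRAP1, DMBT1 and TMIGD1, the last of which the rule used, were also among the 10 leading higher genes. Of the absorptive enterocyte list, 3 of 10 measured genes were higher and 0 lower (FABP1, PRAP1 and TMIGD1). Of the ion transport list, 5 of 14 measured genes were higher (SLC9A3, SLC9A2, GUCA2A, GUCA2B and SLC16A1) and 1 was lower, SLC12A2, the basolateral chloride loader of secreting cells.

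Of the mucosal defense list, 4 of 16 measured genes were lower (SAA3, CXCL2, C3 and CFB) and 2 higher (DMBT1 and SLPI), and CFI and OLFM4, which the rule used, led the lower genes. CFI, the protease that cleaves C3b, was 0.198 in members and 2.80 in the crypt class at d1, 0.387 against 5.06 at d7 and 0.625 against 4.88 at d21. C3, the central complement component, was 0.696 against 12.3, 1.37 against 10.7 and 1.58 against 8.44. FCN2, CFP (properdin), SAA3 (an acute phase apolipoprotein), BPI (a bactericidal protein), SPINK1 (a trypsin inhibitor) and ASCL2, a transcription factor of intestinal stem cells, were lower at all 3 ages as well. Of the stem and crypt list, 3 of 10 measured genes were lower and 0 higher (ASCL2, SLC12A2 and OLFM4, the last of which the rule fixed as lower), and of the proliferation list 3 of 16 were lower and 0 higher (PCNA, UBE2C and STMN1), where 1.41% of all genes were lower. MKI67, a marker of dividing cells, was 0.0518 in members and 0.536 in the crypt class at d1, 0.105 against 1.11 at d7 and 0.433 against 0.586 at d21, and was not past the fold at all 3 ages.

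Against the goblet class, the lower genes were led by mucus genes, on some of which the rule chose. Of 3054 genes measured at d0 and d1, 6 (0.196%) were higher and 71 (2.32%) lower in members. The count of higher genes was set by d1, where 6 were higher, against 62 at d0 alone. With the mean over barcodes the split was 53 higher and 140 lower, and without barcodes carrying RNA of other cell types 19 higher and 91 lower. The goblet list had 11 of 13 measured genes lower, 3 of which the rule used, and several, such as MUC2, AGR2 and FCGBP, were measured only through the goblet class. TFF3, a trefoil peptide packaged with mucin, was 0.938 in members and 310 in the goblet class at d0, and 1.83 against 170 at d1. AGR2 (a disulfide isomerase needed for mucin folding), FCGBP (a mucus protein), REG4, RETNLB, BPI and REP15 followed. Among the higher genes were SLC26A3 (the apical chloride/bicarbonate exchanger), GUCA2A, SLC51B and SLC30A10. SLC26A3 was 3.23 in members and 1.25 in the goblet class at d0, and 2.51 against 1.03 at d1.

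The levels of the members were set beside those of the crypt and absorptive classes gene by gene at d1, where all classes are large. Outside the 9 genes of the rule, 733 genes were at least 2-fold higher in the absorptive than in the crypt class, and in 708 of them (96.6%) the level in members lay between the 2 classes. Of 475 genes that were at least 2-fold lower in the absorptive class, 461 (97.1%) had the members between. On a scale where the crypt class is 0 and the absorptive class is 1, the median gene of the first kind stood at 0.521 and of the second at 0.430. These genes were chosen because the 2 classes differ in the same data, which favors a level in between for any further class. No other class was placed on this scale for comparison. Since the rule also capped the leading gene of each neighbour, this order is a description and not a test. The median member at d1 held 13576 UMIs, against 5662 in the absorptive class and 9766 in the crypt class, and the part of depth or of joined cells in the order was not tested. AREG, an EGF receptor ligand, and SLPI, a secreted protease inhibitor, were among the 14 genes of the first kind that were higher in members than in both. AREG was 5.74 in members, 5.46 in the absorptive and 1.98 in the crypt class, and SLPI was 5.16, 4.96 and 1.497. In the goblet class AREG was 6.04, above the members.

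**Figure D3:**
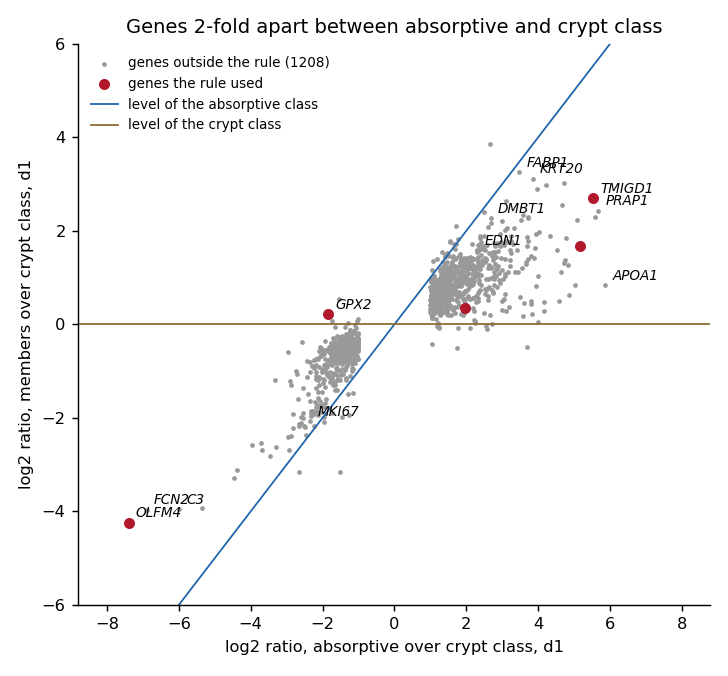
Genes at least 2-fold apart between the absorptive and crypt classes at d1 (1 point per gene, 733 higher and 475 lower in the absorptive class outside the rule in gray, rule genes in red), with the log2 ratio of absorptive over crypt class on the x axis and of members over crypt class on the y axis. Most points lie between the horizontal line (level of the crypt class) and the diagonal (level of the absorptive class).

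Of 3413 genes measured at d1, 1 stood at least 2-fold above all 3 other classes, LOC100153915, a protein-coding gene without a symbol, at 2.435 in members, 1.02 in the absorptive, 0.694 in the goblet and 0.0748 in the crypt class. Levels above all 3 neighbours by any margin were held by 455 genes (13.3%), that gene included, and levels below all 3 by 163 (4.78%). The named genes with the widest margin were SST, PGF, TMEM52, TST and ATP10B, chosen after their values were seen, and of these SST rested on 5 barcodes that held 91.0% of its d1 counts. PGF, placental growth factor, was 0.958 in members and 0.516 to 0.555 in the other classes, and TST, the mitochondrial enzyme thiosulfate sulfurtransferase, which detoxifies cyanide and sulfide, was 10.1 against 6.35 to 6.69.

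Within the members of d0 and d1, several absorptive and crypt genes followed the residual TMIGD1 and DPEP1 signal. Others, such as KRT19 and OVOL1, both of which the rule required, did not. Members were divided by the sum of both genes per 10000 UMIs into 0, above 0 to 5, 5 to 10, and 10 to 15, which held 43, 133, 117 and 105 barcodes at d0 and 290, 802, 273 and 138 at d1. FABP1 was 5.75, 20.8, 36.7 and 43.1 along this order at d0 and 3.39, 8.01, 14.9 and 15.8 at d1. PRAP1, a secreted protein of the absorptive epithelium, was 0.947, 3.72, 7.998 and 12.5 at d0 and 0.731, 1.97, 5.96 and 9.98 at d1. KRT20 and the carbonic anhydrase CA4 took the same course at both ages, KRT20 from 2.59 to 12 and CA4 from 2.01 to 8.51 at d1. EDN1 went from 1.32 to 4.83 at d0 and from 2.63 to 7.88 at d1, and DMBT1 from 3.04 to 9.44 and from 10.5 to 31.6. At both ages these markers were highest in the members nearest to the absorptive limit. At d7, on 21, 45, 31 and 36 barcodes, DMBT1 took the same course (10.5, 31.4, 47.9 and 51.5) but EDN1 did not (1.03, 1.53, 0.445 and 0.514). KRT19 was not level at d7, with 48.5, 77.5, 91.8 and 78.4.

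In the opposite direction, OLFM4 was 5.51, 1.22, 0.182 and 0.00541 along the same order at d0, and 4.94, 1.79, 0.390 and 0.0856 at d1. SOX9, a transcription factor of crypt progenitors, went from 0.423 to 0.0270 at d0 and from 0.239 to 0.0342 at d1. OVOL1 was nearly level, with 1.72, 1.49, 1.86 and 1.95 at d0 and 2.25, 2.72, 2.79 and 2.71 at d1. GPX2 went from 1.34 to 0.968 at d0 and from 3.86 to 2.85 at d1. The rule required at least 1 UMI of OVOL1, GPX2 and KRT19 in every member, so the course of these genes along the order is partly set by the rule. Median depth was 9321 UMIs at 0 and 14410 to 16250 in the other ranges at d0, and 9668 against 13500 to 16220 at d1, so the lowest range held shallower barcodes, in which a count of 0 is easier to obtain.

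**Figure D4:**
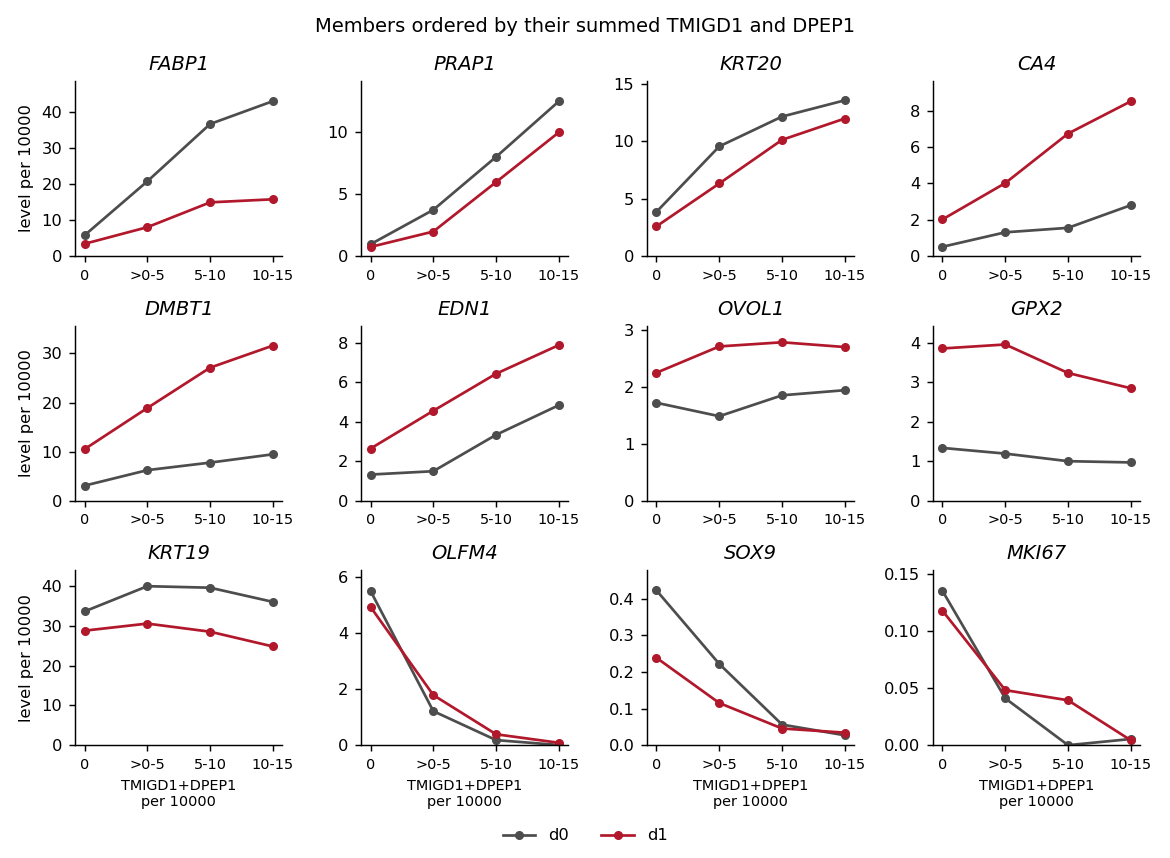
Levels per 10000 UMIs (y axes, from 0) of 12 genes in d0 (gray) and d1 (red) members ordered by summed TMIGD1 and DPEP1 per 10000 UMIs (x axes). FABP1, PRAP1, KRT20, CA4, DMBT1 and EDN1 are higher to the right at both ages, OLFM4, SOX9 and MKI67 are lower, and OVOL1 and KRT19 differ little.

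Between d0 and d1, DMBT1, SLPI, CCL20, PI3, CLDN3 and CLDN4 were higher in members, and DDIT4, DDIT3, FABP1 and FABP6 lower. Of 2725 genes measured, 75 (2.75%) were past the fold upward and 26 (0.954%) downward, and the median log2 ratio was 0.03. Many of these differences were shared with the neighbouring classes. Of the 75 higher genes, 51 (68%) were also higher in the absorptive class, against 3.28% of all genes measured there. In the goblet class 40 (53.3%) were also higher, against 1.95%. Of the 26 lower genes, 8 (30.8%) were also lower in each class, against 0.635% (absorptive) and 1.70% (goblet). Of the mucosal defense list, 6 of 7 measured genes (39 of the list are in the matrix) were higher and 0 lower. C3 and IL1A counted as measured only through their d1 level. DMBT1 was 7.28 at d0 and 20.4 at d1, a log2 ratio of 1.47. SLPI was 1.36 and 5.16, C3 0.118 and 0.696, IL1A (the cytokine interleukin 1 alpha) 0.0752 and 0.580, TNFAIP3 (A20, an inhibitor of NF-kB signaling) 0.626 and 1.88, and CCL20, the chemokine that draws CCR6-positive lymphocytes, 1.25 and 3.19. The absorptive class of the same libraries held 8.68 and 27.1 of DMBT1, 0.835 and 4.96 of SLPI and 6.89 and 12.4 of CCL20.

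Other epithelial genes with a higher level at d1 were PI3 (elafin, an elastase inhibitor), at 0.335 and 2.82, LBP (lipopolysaccharide binding protein), at 0.0501 and 0.796, and the membrane mucin MUC1, at 0.134 and 0.868. GPX2 itself was past the fold, with a log2 ratio of 1.69, and its level in the absorptive class was 0.110 at d0 and 0.812 at d1. NOXO1, which organizes the epithelial NADPH oxidase NOX1, was 0.167 at d0 and 0.948 at d1. The tight junction claudins CLDN3 and CLDN4 were the 2 of 17 measured junction genes past the fold, where 2.75% of all genes were higher, CLDN3 at 2.08 and 4.96 and CLDN4 at 1.956 and 6.63. Of the antigen presentation and interferon list, 4 of 9 measured genes were higher and 0 lower: B2M, the light chain of class I molecules, at 3.61 and 8.31, TAPBP (tapasin), IRF1 and CD74, of which TAPBP, IRF1 and CD74 were under 0.5 at d0 and measured only through d1. CD74, the class II invariant chain, had 78.3% of its d1 counts in 208 d1 members of 3 groups described below that carry RNA of other cell types.

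The largest ratios belonged to genes of stroma and endothelium. IGFBP7, COL4A1, COL3A1, FABP5, PLVAP, VIM and LGALS1, 7 of the 10 leading genes, were at 0.506 to 1.01 in d1 members and at 0.00278 to 0.0501 at d0. COL3A1, a fibrillar collagen of fibroblasts, was 0.875 in d1 members, 1.17 in the absorptive class, 1.03 in the goblet class and 6.64 in the whole library, and 78.9% of its member counts lay in those 3 groups. In members outside these 3 groups and group 10 its level was 0.214. When barcodes with at least 2 UMIs of the 8 genes of other cell types were left out, the log2 ratio of COL3A1, itself 1 of the 8 genes, went from 3.11 to 0.99, that of PLVAP (a protein of fenestrated endothelium) from 2.56 to 0.96 and that of IGFBP7 from 3.24 to 1.66, while that of PI3 was 2.75 before and 2.77 after, and that of LBP 2.58 and 2.60. Of all 75 higher genes, 32 had a whole-library level at d1 above that of the members (42.7%, against 34.3% of all measured genes).

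SST (somatostatin), the remaining leading gene, rested on few barcodes. Its level was 0.0139 at d0 and 0.737 at d1, but 5 of the 1503 d1 members held 91.0% of its 2006 UMIs, and 4.19% of members had any. PYY, the ileal and colonic satiety hormone, was alike, with 85.0% of its d1 counts in 5 barcodes. The member levels of these hormones at d1 thus rest on a few barcodes.

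Genes with a lower level at d1 were led by DDIT4 (an inhibitor of mTORC1 induced by stress), at 4.82 and 0.887, and FABP6, the ileal bile acid binding protein, at 0.841 and 0.120. FABP1 was 30.4 at d0 and 9.31 at d1, a log2 ratio of -1.70. SLC51B was 8.21 and 3.15, DDIT3 (CHOP, of the unfolded protein response) 3.46 and 1.19, and ID1, a target of BMP signaling, 6.68 and 2.26. TMIGD1, which the rule capped, and PRAP1 completed 3 of 13 measured absorptive enterocyte genes that were lower, with 0 higher, where 0.954% of all genes were lower. The absorptive class held 3.59 and 1.79 of DDIT4, 28.7 and 10.9 of FABP1, and 13.6 and 7.80 of SLC51B. In these libraries FABP1 was lower at d1 in both classes.

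Between d1 and d7 the members differed in more genes. Of 2923 genes measured, 207 (7.08%) were past the fold upward and 231 (7.9%) downward, on 1503 and 133 barcodes. FABP1 was 9.31 at d1 and 162 at d7, a log2 ratio of 4.11, and the crypt class held 0.886 and 1.80 in the same libraries. The keratin and envelope list had 11 of 14 measured genes higher and 0 lower, among them KRT19, which the rule required, and S100A2 and SFN, which were measured only through d7. KRT8 was 26.6 at d1 and 89.2 at d7, KRT18 1.17 and 7.03, KRT20 7.01 and 22.9, and the calcium binding proteins S100A6 9.36 and 71.9 and S100A2 0.0595 and 7.35. The crypt class held 12.6 and 17.3 of KRT8 and 4.23 and 5.28 of S100A6. The rise was not particular to the members. Summed, this list was 111 and 362 in members, 95.8 and 421 in the absorptive class and 128 and 269 in the goblet class. At d7 the absorptive and goblet classes held only 36 and 38 barcodes. Of the 207 higher genes, 55 (26.6%) were also past the fold upward in the crypt class, against 4.88% of all genes measured there.

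Genes of redox defense were also higher at d7. Of the glutathione and NRF2 target list, 11 of 28 measured genes were higher and 0 lower (39.3% against the 7.08% of all genes), among them GSTA1, GSTO1, MGST2, NQO1, TXN, PRDX6, PGD, TALDO1, TKT and FTL. TXN, thioredoxin, was 10.3 at d0, 12.2 at d1, 53.0 at d7, 45.9 at d14 and 20.4 at d21. PRDX6, a peroxiredoxin that uses glutathione, was 6.94, 4.48, 16.8, 9.36 and 7.91, and NQO1, a quinone reductase, 0.0404, 0.165, 1.67, 5.08 and 0.221. PGD, an enzyme of the pentose phosphate pathway, was 0.980 at d1 and 3.47 at d7. In the crypt class TXN was 13.5 at d1 and 22.6 at d7, and PRDX6 2.68 and 2.48. Summed at d1 and d7, the list was 149 and 269 in members, 213 and 386 in the absorptive class and 130 and 182 in the goblet class. The d7 values of the absorptive and goblet classes rest on 36 and 38 barcodes. GPX2, at 3.72 and 5.64 in members, had a log2 ratio of 0.59, short of the fold.

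Interferon-induced genes were also higher at d7, with 6 of 15 measured genes of the antigen presentation and interferon list past the fold and 0 lower, where 7.08% of all genes were higher (IRF7, ISG15, MX1, OAS1, GBP1 and IFI6). Of these, IRF7, MX1, OAS1 and GBP1 were under 0.5 at d1 and measured only through d7. ISG15, a ubiquitin-like modifier, was 0.593 at d0, 0.630 at d1, 9.09 at d7, 13.1 at d14 and 13.9 at d21. IFI6 was 0.509 at d1 and 15.7 at d7, against 0.268 and 6.77 in the crypt class and 22.7 in the whole d7 library. HSPA6, an inducible heat shock protein, was 0.428 and 5.90. In the same comparison 8 of 24 measured immediate early and stress genes were lower and 3 higher, against 7.9% and 7.08% of all genes. EGR1, among the lower, was 9.84 and 3.49. HBB, the beta chain of hemoglobin and not an epithelial gene, was 0.0110 at d1 and 3.13 at d7, where the whole library held 45.7 and 5 barcodes held 89.0% of the member counts. Of the 207 higher genes, 31 had a whole-library level at d7 above that of the members (15%, against 39.4% of all measured genes).

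Lower at d7 were DAB2, PDZK1, ANPEP and APOA1, among others. The stromal and endothelial genes IGFBP7 (1.01 at d1 and 0.0473 at d7), COL4A1, FABP5, PLVAP and COL3A1 and the hormone genes SST and PYY were also among the leading lower genes. Of the 231 lower genes, 145 had a whole-library level at d7 above that of the members (62.8%, against 39.4% of all measured genes). Of 10 measured absorptive enterocyte genes, 6 were lower (among them APOA1, ANPEP, SMIM24, AMN and ENPEP) and 1 was higher, FABP1, where 7.9% of all genes were lower. DAB2, an adaptor of receptor-mediated endocytosis, was 1.58 at d0, 3.02 at d1, 0.0436 at d7, 0.277 at d14 and 0.173 at d21, and AMN, the partner of cubilin, and LGMN, a lysosomal protease, were lower as well, so that 3 of 11 measured genes of the endocytosis and lysosome list were lower and 0 higher. PDZK1, a scaffold of apical transporters, was 1.97 at d1 and 0.0491 at d7, and ANPEP, aminopeptidase N, 1.86 and 0.160. EDN1 was 4.92 and 1.03, a log2 ratio of -2.16, so that of the 5 given markers KRT19 was higher and EDN1 lower at d7. In contrast, SLC9A3 was 1.07 at d1 and 5.25 at d7, and LYPD8, a protein that binds flagella and keeps bacteria off the colonic surface, 4.36 and 23.8. The crypt class held 0.130 and 0.0502 of SLC9A3. It shared several of the falls, with log2 ratios of d7 over d1 of -2.15 for PDZK1, -1.66 for ANPEP and -2.04 for EDN1. Of the 231 lower genes, 74 (32%) were also past the fold downward in the crypt class, against 4.14% of all genes measured there, and 0 went the opposite way.

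At d14 and d21 only 15 and 55 members were found, and levels are given without calls between ages. The d21 members were called only against the crypt class, as given above. FABP1 was 30.9 at d14 and 13.4 at d21, KRT8 76.2 and 62.8, and S100A2 28.5 and 7.00. CA4 was 1.18 and 0.115, after 4.63 at d1 and 6.03 at d7. The proliferation list summed to 28.4 at d14 and 18.9 at d21, against 9.06 at d0, 6.78 at d1 and 6.97 at d7. The 13 T and NK cell genes summed to 11.7 and 12.8, against 0.316 at d0, 0.5001 at d1 and 1.90 at d7, and the part of such RNA in the late members was not tested.

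Clustering the 2104 members by the Leiden method gave 11 groups, numbered 0 to 10 by size, most of them of 1 age. The groups were found on the same genes that describe them, so they are descriptions without a test. Groups 0, 1 and 2 held 450, 400 and 398 members, at least 95.6% of them from d1. Group 0 was led by OLFM4, SLC12A2, EIF4EBP3, C3 and GALK1, with OLFM4 at 4.28 and FABP1 at 3.50. Group 1 was led by CCL20, ANPEP, ENPEP, RBP2 and SLC2A6, with DMBT1 at 32.6 and EDN1 at 7.06. Group 2 was led by PCK1, TMEM52, GPRC5A, RNF186 and CHP2, with OVOL1 at 3.44 against 2.21 in group 0 and 2.66 in group 1. The d1 members thus ran from a group led by OLFM4, which the rule capped, to groups with brush border peptidases or with PCK1, the rate-limiting enzyme of gluconeogenesis. OLFM4 was higher, at 12.5, in the smaller group 6 described below.

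Most members of d0, d7 and d21 stood apart from the bulk of those of d1. Group 3 held 304 of the 398 d0 members (76.4%) and only 3 others, and was led by DDIT4, FABP6, NKAIN2, BTBD19 and LSMEM1. Group 8, with 47 d0 members among 53, was led by SMLR1, PPP1R1A, ANXA13, ADH1C and TNNI2. Group 4 joined 117 of the d7 members (88.0%), 8 of d14 (53.3%) and 41 of d21 (74.5%), and was led by S100A2, ISG12(A), HBB, IFI6 and ISG15. As each age is 1 library, age and library cannot be told apart in these groups.

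Smaller groups were led by genes of mitosis or of other cell types. Group 6, 74 members of all 5 ages, was led by FCN2, BPI, UBE2C, CENPF and TOP2A, the last 3 being genes of mitosis, and FCN2 stood at 46.4 against 1.51 in the other members. Groups 5, 7 and 9 (113, 68 and 49 members) were led by COL3A1, CXCL14, COL1A2, LGALS1 and ADAMDEC1, by C1QA, SLA-DRA, CD74, SLA-DQA1 and C1QB, and by FABP5, PLVAP, CLEC3B, GNG11 and PECAM1. In these groups 97.3%, 86.8% and 100% of the barcodes held at least 2 UMIs of the 8 genes of other cell types, against 1.89% (group 8) to 37.3% (group 4) in the other groups. Together they made up 230 members (10.9%), 208 of them from d1 (13.8% of the d1 members). Group 10, with 26 members, was led by PYY, SST, CA7, GCG and CHGB, genes of enteroendocrine cells and, for CA7, of BEST4-positive absorptive cells. The SLA genes of group 7 belong to a family of close copies, between which counts may be split.

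**Figure D5:**
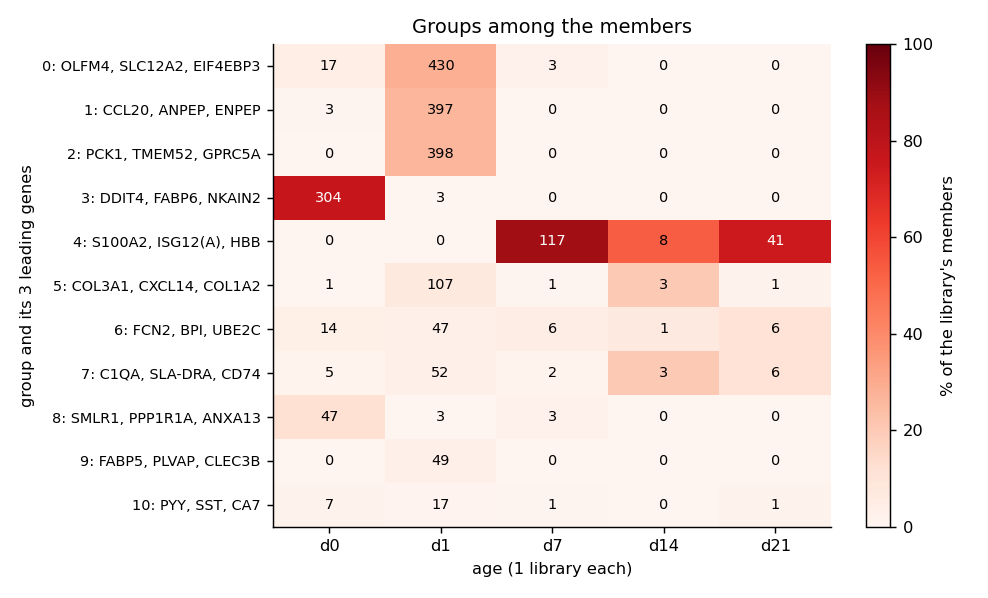
Number of members (printed) of each group (rows, with the 3 leading genes) at each age (columns), colored by the percent of the library's members. Groups 0, 1 and 2 hold the bulk of the d1 members, group 3 304 of the d0 members and group 4 117 of the d7 members.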

How the data were processed

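Single-cell 3' libraries of the cecum from 5 ages were analyzed. Per the submitters' processing notes, reads were processed with Cell Ranger 3.1.0 and STAR on susScr11, and the authors deposited raw UMI counts, 1 matrix per library with 20648 genes. The labels and the paper name different kit versions, and since the paper's methods fix fewer cells per library than there are barcodes here, its cell set was not rebuilt. Barcodes with at least 200 genes were kept. No doublets were called or removed; barcodes with at least 2 UMIs of 8 genes of other cell types, or the 8% with the most UMIs, were left out as alternatives.

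Levels are summed counts per 10000 counts of the same barcodes. Log2 ratios were taken after adding 0.1, and a gene was past the fold at a size of at least 1 with the higher level at least 0.5. Classes were compared in libraries where both held at least 50 barcodes. No test was run, as each age has 1 library. Intervals are exact Clopper-Pearson for shares and exact Poisson for levels, at 95%, and cover counting error only. Members were clustered by Leiden at resolution 0.5 on log-scaled counts. The members and the 33 gene lists were chosen with earlier results of these data known. Named genes were the given markers, the 9 genes of the rule, in each list those of highest level or largest ratio, the 10 leading genes each way in a comparison (unnamed loci left out) and the 5 leading genes of each group; AREG, PGF, TST, SOX9, MKI67, SLC51B and LOC100153915 were among those added after their values were seen. A few genes are not reported here. All 541 list genes found in the matrix matched RefSeq. Scripts used Python 3.11.15, NumPy 2.4.6, SciPy 1.17.1, pandas 2.3.3, scikit-learn 1.9.0, python-igraph 0.11.9 and matplotlib 3.10.9, and the ratio and clustering steps were tested on simulated data.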

Additional observations from a re-analysis of the deposited data

Results flagged for a closer look

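PYY and SST, hormones of enteroendocrine cells, went opposite ways in members and in the goblet class between d0 and d1. The log2 ratio of d1 over d0 was 1.53 for PYY in the members and -2.74 in the goblet class, and 2.88 for SST in the members and -2.31 in the goblet class. With 1 library per age, the difference was not tested. In the d1 members, 5 barcodes held 85.0% of the 1632 UMIs of PYY and 91.0% of the 2006 UMIs of SST, and group 10 held 83.3% and 59.9%.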

How the results depend on the processing

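The log2 ratio of the member share at d1 over d0, 2.02 as reported, was 1.73 with at least 500 genes, 1.16 under 20% mitochondrial counts, 2.38 with at least 2 UMIs of OVOL1, 2.38 with the limits halved, 1.73 with the limits doubled, 2.65 without barcodes of other cell types, 3.13 after thinning and 2.50 over KRT19 and EPCAM barcodes. With at least 5000 UMIs, a choice made after seeing the data, it was 2.24. For d21 over d0, -3.01 as reported, the moved values were -4.04 under 20% mitochondrial counts, -2.01 without barcodes of other cell types, -3.49 without the 8% of barcodes with the most UMIs and -0.19 over KRT19 and EPCAM barcodes. Genes past the fold numbered 101 (d1 against d0), 438 (d7 against d1), 214 (absorptive), 77 (goblet) and 156 (crypt) as reported, and 51, 232, 111, 40 and 70 with 0.5 added, which lowers every ratio of low genes by construction. Without a limit on the level they numbered 198, 673, 297, 150 and 257, and the mean over barcodes gave 193 for the goblet class. The cause of the other shifts was not tested. The total counts stayed within 1.5-fold under the other alternatives run, but the higher genes went from 53 to 30 (absorptive) under 20% mitochondrial counts and from 6 to 19 (goblet) without barcodes of other cell types, and the lower genes from 26 to 42 (d1 against d0) with at least 2 UMIs of OVOL1 and from 52 to 34 (crypt) with the mean over barcodes. Of the recomputed ratios of named genes 582 moved by no more than their counting error, 362 moved further and 0 of those past the fold changed sign. Leiden clustering gave 15 groups at resolution 1. No paired analysis was possible because each age is 1 library. Depth limits low genes: with 15 members at d14 and 55 at d21, no calls between ages were made there. Only the comparison with the crypt class used the d21 members.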
